A study of Mus musculus with 50 samples.

Results

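Control epiblast-like cells (epiLC) at 48 h were compared with those at 24 h across all genes by RNA-seq, using 2 libraries at each time, 4 of the 50 samples of the series. The libraries were picked by their labels, as the columns of epiLC made from mouse V6.5 embryonic stem (ES) cells that carry those 2 times. The comparison itself was chosen with earlier results of these data known. The labels of these libraries name the culture condition as epiLC media and name no hairpin, genotype change or drug. The same deposited table holds 2 libraries of V6.5 ES cells in 2i medium, the naive starting state, and these entered the same model. A separate table holds V6.5 epiLC labelled shBcat, a short hairpin against β-catenin, and sampled at 24, 48 and 96 h, together with a 96 h control, with 2 libraries each. Whether the 2 libraries of a time stem from different cultures is not stated in the labels, so the p-values reflect variation among these libraries, and that variation may be purely technical. V6.5 is 1 established line.

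ES cells in 2i are held in the naive state by inhibitors of MEK and GSK3, and resemble the epiblast before implantation. When the inhibitors are withdrawn in the presence of FGF and Activin, the cells pass into a formative state like that of the epiblast just after implantation. Naive transcription factors are then lost, de novo DNA methyltransferases come up, and the cells become able to answer signals for the germline and the germ layers. The interval described here lies after that exit, and the question it answers is what the cells did in their second day of epiLC culture.

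Values are TPM, a share of all transcripts that is corrected for transcript length and scaled to the same total in every library. Differences are on the log2(TPM + 1) scale, on which changes of low genes come out smaller than they are. Depth is unknown, since TPM keeps none. Between 14581 and 15351 genes reached 1 TPM in each of the 6 libraries, and mitochondrial transcripts made up 3.18% to 3.88% of the values. The libraries of 1 time lay close together. The median absolute log2 difference between them was 0.056 at 24 h and 0.061 at 48 h, against 0.40 to 0.41 for the 4 pairings of a 24 h with a 48 h library. Of 6 markers of epiblast-like cells all were present, with Pou3f1 at 45.1 and 46.7 TPM at 24 h and 38.7 and 38.5 TPM at 48 h and Fgf5 at 13 and 12.8 TPM at 24 h and 28.1 and 24.8 TPM at 48 h. Their summed level was 1699 and 1745 TPM at 24 h and 603 and 579.8 TPM at 48 h, most of it Pou5f1. From 24 to 48 h 1 of the 6, Fgf5, rose at an adjusted p under 0.05 and 4 fell, against 45.2% and 28.9% of all tested genes. Pou5f1 and Dnmt3b were the 2 that fell at least 2-fold, against 4.46% of all tested genes. In these bulk samples fewer cells of a type and less RNA per cell cannot be told apart.

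From 24 to 48 h 12279 of 16559 tested genes changed at an adjusted p under 0.05, which is 74.2% of them. Of these 7490 rose (45.2% of the tested genes) and 4789 fell (28.9%). At least 2-fold changes were fewer and mostly upward, with 1937 genes higher (11.7%) and 738 lower (4.46%). The median log2 change of all tested genes was 0.12. Scaling the libraries by median of ratios moved this median by -0.12, and the calls then stood at 6160 higher and 6123 lower, so the excess of small rises depends on the scaling. At 2-fold or more, scaled values gave 1574 higher and 899 lower. These shares are the background for the counts of gene lists. Among the genes named for the size of their change, the largest rise was that of Tagln, an actin-binding protein gene, and the largest fall that of Gadd45g, a stress-induced gene.

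**Figure D1:**
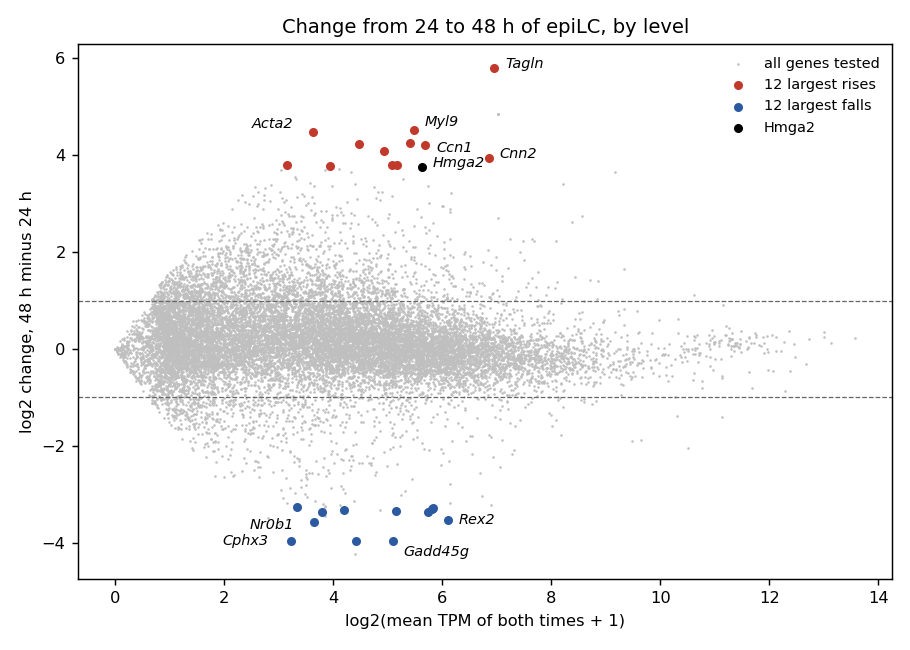
Log2 change from 24 to 48 h (vertical axis, log2(TPM + 1) scale) against the log2 of the mean TPM of both times plus 1 (horizontal axis) for the 16559 tested genes, with the 12 largest rises that were named in red, the 12 largest falls in blue and Hmga2 in black. Dashed lines mark 2-fold. Tagln stands apart at 5.80, and changes beyond 2-fold are more often upward (1937 genes) than downward (738 genes).

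Genes of a contractile and actin-binding list rose as a group. All 28 tested members of the 29 listed rose, 19 of them at least 2-fold, against 45.2% and 11.7% of all tested genes. Their median log2 change was 1.95 against 0.12 over all genes. The list was chosen with earlier results of these data known. It does not hold the myosin light chain gene Mylpf, which was among the 12 largest named falls. Tagln, which encodes transgelin, an actin-binding protein of smooth muscle, stood at 2.86 and 3.93 TPM at 24 h and 226 and 258 TPM at 48 h (log2 change 5.80, SE 0.12, adjusted p = 4.11e-07). Its 48 h libraries lay far above both 24 h libraries and above 2i, where it was at 2.4 and 2.39 TPM. Myl9, a regulatory light chain of smooth muscle and non-muscle myosin, stood at 2.45 and 2.98 TPM at 24 h and 85.7 and 83.2 TPM at 48 h (log2 change 4.53, SE 0.09, adjusted p = 2.10e-07). Acta2, smooth muscle α-actin, was nearly absent at 24 h, with 0.06 and 0.07 TPM at 24 h and 22.4 and 23.1 TPM at 48 h (log2 change 4.48, SE 0.08, adjusted p = 1.52e-07). The groups did not overlap for either gene, which the rule that named the largest rises required. Cnn2, the actin-binding calponin 2, stood at 12.1 and 13.9 TPM at 24 h and 206 and 225 TPM at 48 h (log2 change 3.95, SE 0.07, adjusted p = 1.38e-07). Tpm1, an α-tropomyosin that lies along the actin filament, was already abundant and stood at 86.1 and 81.7 TPM at 24 h and 1047 and 1091 TPM at 48 h (log2 change 3.66, SE 0.03, adjusted p = 7.39e-08). Tpm4, another tropomyosin, went from 66.8 and 67.8 TPM to 326 and 336 TPM (log2 change 2.28, SE 0.03, adjusted p = 7.92e-08). Both 48 h libraries lay above both 24 h libraries for each of these genes, which the naming rule required of Cnn2. The abundant cytoplasmic actins moved less, Actb with a log2 change of 0.30 and Actg1 of 0.91. Vim, which encodes the intermediate filament protein vimentin, changed by 0.83. With median-of-ratios scaling 27 of the 28 genes still rose and the median was 1.80.

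**Figure D2:**
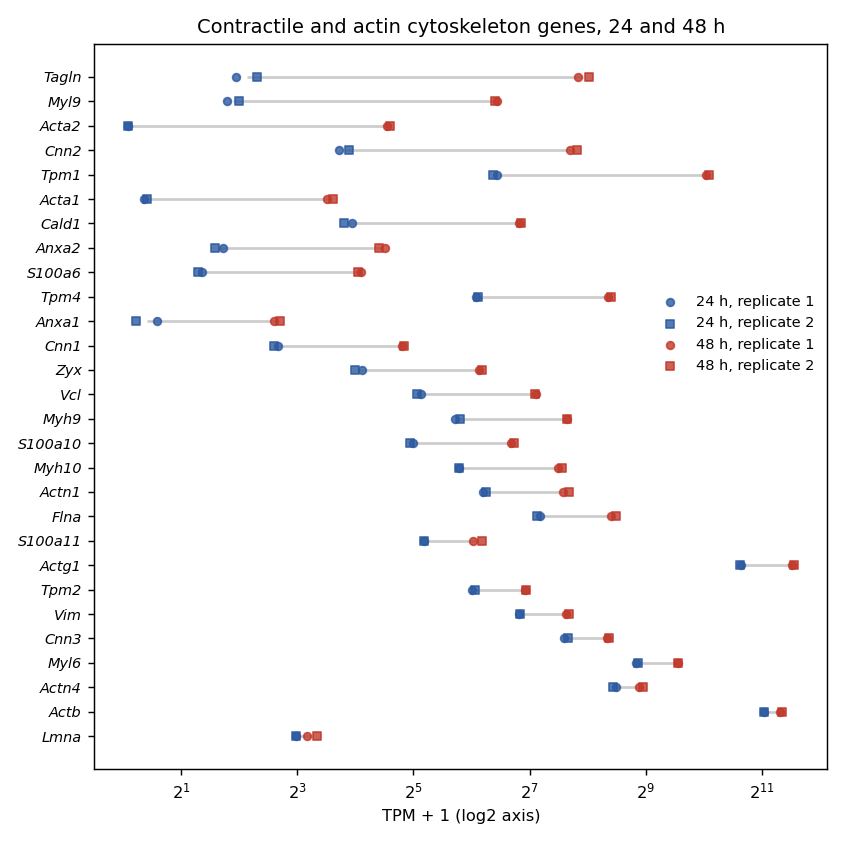
TPM plus 1 on a log2 axis of the 28 tested contractile and actin cytoskeleton genes in each library at 24 h (blue) and 48 h (red), ordered by their log2 change, with grey lines joining the means. All 28 genes rose, against 45.2% of all tested genes, from Lmna at the bottom (log2 change 0.27) to Tagln at the top (5.80).

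Sequence before the start is shown for the 4 genes named for the size of their change that had the largest changes and a window in the RefSeq promoter table (GRCm38.p6) with at least 100 of its 250 bases outside the annotated gene. Muscle-type genes are classic targets of the CArG box bound by serum response factor, and Ccn1 is a textbook target of TEAD factors, which bind CATTCC. The first 3 of these genes rose, and Gadd45g fell. The window of Acta2 is not shown, since 212 of its 250 bases lie inside the annotated gene, and that of Myl9 is cut by 56 bases for the same reason. Capitals mark matches to the CArG box (CC, 6 letters that are A or T, GG) or to CATTCC on either strand, read as GGAATG on the opposite one, and the last base printed is the one before the gene's annotated 5′ end.
Myl9 (chr2:156775214-156775407, plus strand): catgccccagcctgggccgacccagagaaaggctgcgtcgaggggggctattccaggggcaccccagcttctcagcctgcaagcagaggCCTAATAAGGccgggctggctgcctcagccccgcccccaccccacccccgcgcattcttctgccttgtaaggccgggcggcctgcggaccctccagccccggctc
Ccn1 (chr3:145649986-145650235, minus strand): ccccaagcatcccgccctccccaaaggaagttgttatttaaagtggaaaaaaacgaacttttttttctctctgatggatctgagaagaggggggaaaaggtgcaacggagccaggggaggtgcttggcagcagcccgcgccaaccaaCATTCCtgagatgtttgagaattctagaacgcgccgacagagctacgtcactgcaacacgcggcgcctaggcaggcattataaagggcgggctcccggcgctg
Igfbp5 (chr1:72874866-72875115, minus strand): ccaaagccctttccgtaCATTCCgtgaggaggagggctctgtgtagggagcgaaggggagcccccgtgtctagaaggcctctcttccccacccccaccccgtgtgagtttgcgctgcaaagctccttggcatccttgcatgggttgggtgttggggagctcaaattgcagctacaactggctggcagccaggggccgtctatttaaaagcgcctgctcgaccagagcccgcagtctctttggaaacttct
Gadd45g (chr13:51846425-51846674, plus strand): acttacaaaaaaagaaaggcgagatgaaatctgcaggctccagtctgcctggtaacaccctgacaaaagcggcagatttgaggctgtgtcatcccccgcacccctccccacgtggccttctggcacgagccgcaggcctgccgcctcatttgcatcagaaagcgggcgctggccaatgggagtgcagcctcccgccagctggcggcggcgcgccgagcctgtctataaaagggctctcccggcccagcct
The Myl9 sequence held a CArG box, with its first base at -105 from the gene. The Ccn1 sequence held CATTCC from base -103 and the Igfbp5 sequence from base -233. That of Gadd45g held neither motif. Of 32851 windows of 250 bases in the table, some of which reach into an annotated gene, 1.47% held a CArG box and 12.6% held CATTCC on either strand. Among the 10866 tested genes with a window these shares were 1.15% and 10.6%, among 1399 genes that rose at least 2-fold 1.93% and 13.3%, and among 457 that fell at least 2-fold 0.875% and 11.2%. Of 25 contractile genes with a window 5 held a CArG box and 9 held CATTCC. A match describes the letters in this window and is not evidence of binding.

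Several genes of secreted matrix-associated proteins were also higher, though not all. Ccn1 (Cyr61), a secreted matrix-associated protein of the CCN family, stood at 4.34 and 4.13 TPM at 24 h and 95.6 and 97.5 TPM at 48 h (log2 change 4.22, SE 0.05, adjusted p = 7.92e-08). Its relative Ccn2 (connective tissue growth factor) stood at 13.3 and 12.4 TPM at 24 h and 131 and 126 TPM at 48 h (log2 change 3.22, SE 0.05, adjusted p = 1.32e-07). Thbs1, which encodes the adhesive glycoprotein thrombospondin 1, stood at 1.17 and 0.95 TPM at 24 h and 25.6 and 25.6 TPM at 48 h (log2 change 3.69, SE 0.08, adjusted p = 2.60e-07). All 3 were low in both 24 h libraries and high in both 48 h libraries, and so were the next 3. Groups that do not overlap were a condition for naming Ccn1, Igfbp5, Anxa3 and Meox1. Igfbp5, an insulin-like growth factor binding protein, stood at 2.35 and 2.38 TPM at 24 h and 59.3 and 54 TPM at 48 h (log2 change 4.10, SE 0.07, adjusted p = 1.32e-07). Anxa3, a calcium-dependent membrane-binding annexin, stood at 1.27 and 1.17 TPM at 24 h and 37.6 and 44.5 TPM at 48 h (log2 change 4.24, SE 0.10, adjusted p = 2.66e-07), above the 5.6 and 4.94 TPM of 2i. The homeobox gene Meox1, known from somites, stood at 0.18 and 0.18 TPM at 24 h and 15.5 and 15.4 TPM at 48 h (log2 change 3.80, SE 0.07, adjusted p = 1.93e-07). The kinase gene Nuak1 and the X-linked gene Dcaf12l1 completed the 12, with log2 changes of 3.78 and 3.79. In the list of collagens and fibroblast matrix 15 of 19 tested genes rose and 4 fell, against 45.2% and 28.9% of all tested genes. By at least 2-fold 11 were higher as deposited, against 11.7% of all tested genes, and 7 after scaling. Falls of at least 2-fold numbered 2, against 4.46% of all tested genes. Spp1, which encodes the secreted matrix protein osteopontin, had the smallest p of this list and fell from a mean of 74.1 to 10.6 TPM (log2 change -2.69). The 6 fibroblast or feeder markers summed to 8.10 and 9.55 TPM at 24 h and 13.0 and 12.3 TPM at 48 h. Of these markers Col1a2, a chain of collagen I, stood at 0.15 and 0.16 TPM at 24 h and 4.79 and 4.32 TPM at 48 h (log2 change 2.26, SE 0.08, adjusted p = 1.14e-06). Col3a1, of collagen III, stood at 0.14 and 0.07 TPM at 24 h and 3.16 and 2.41 TPM at 48 h (log2 change 1.77, SE 0.11, adjusted p = 1.20e-05). Col1a1, the other collagen I chain, stood at 0.36 and 0.53 TPM at 24 h and 1.91 and 1.97 TPM at 48 h (log2 change 1.03, SE 0.09, adjusted p = 4.39e-05). These 3 rose and did not overlap between the times, while Thy1, a surface glycoprotein, fell (7.44 and 8.74 TPM at 24 h and 2.94 and 3.41 TPM at 48 h), so the sum rose less than the collagens. Lum and Postn stayed under 0.2 TPM in all 4 libraries. The part of other cells in these rises was not tested.

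H19 and Igf2, both imprinted, were among the 12 largest named rises. H19, a maternally expressed long non-coding RNA, stood at 3.18 and 3.23 TPM at 24 h and 75.9 and 82.4 TPM at 48 h (log2 change 4.25, SE 0.08, adjusted p = 1.94e-07). Igf2, its neighbour and the paternally expressed fetal growth factor, stood at 3.45 and 3.56 TPM at 24 h and 60.4 and 62.9 TPM at 48 h (log2 change 3.80, SE 0.05, adjusted p = 7.92e-08). Both were lowest at 24 h, since H19 had stood at 11.6 and 9.71 TPM and Igf2 at 5.08 and 5 TPM in 2i. Nnat, which encodes the small membrane protein neuronatin, rose from a mean of 8.41 to 96.5 TPM (log2 change 3.37, SE 0.05, adjusted p = 1.32e-07). Mest and Sgce, both paternally expressed, rose from a mean of 91.5 to 568 TPM and from 1.77 to 21.3 TPM, log2 changes of 2.62 and 3.01. Of 30 tested imprinted genes 20 rose, 11 of them at least 2-fold, and 7 fell, against 45.2%, 11.7% and 28.9% of all tested genes, with a median log2 change of 0.53. Cobl, an actin nucleator placed in this list, was the member with the largest fall, from 9.01 to 3.45 TPM.

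Cell adhesion genes rose broadly. Of 34 tested genes of cadherins, catenins, tight junctions and their regulators, 30 rose and 2 fell, against 45.2% and 28.9% of all tested genes. Of the 34, 19 were higher by at least 2-fold, against 11.7% of all tested genes, and the median log2 change was 1.21. Jup, which encodes plakoglobin, the catenin shared by adherens junctions and desmosomes, stood at 26.8 and 27.1 TPM at 24 h and 98.9 and 104 TPM at 48 h (log2 change 1.87, SE 0.04, adjusted p = 1.98e-07). Ctnnd1, p120 catenin, stood at 47.8 and 48.1 TPM at 24 h and 113 and 116 TPM at 48 h (log2 change 1.24, SE 0.03, adjusted p = 2.96e-07). Ctnnb1, β-catenin itself, stood at 398 and 401 TPM at 24 h and 604 and 604 TPM at 48 h (log2 change 0.59, SE 0.02, adjusted p = 1.17e-06). Its 48 h libraries lay above all others of the table. The tight junction claudins Cldn7 and Cldn4 rose from a mean of 11.3 to 52.6 TPM and from 16.1 to 49 TPM. The members that fell were Cdh1, E-cadherin (log2 change -0.17), and the epithelial transcription factor Grhl2 (-1.03), both named after their values were seen. Cdh2, N-cadherin, had the largest rise of the list (7.46 to 38.8 TPM, log2 change 2.24), also named afterwards. Among 22 genes of apical polarity and lumen formation 17 rose and 3 fell, against the same 45.2% and 28.9% of all tested genes. Itgb1, integrin β1, went from 107 and 105 to 315 and 329 TPM (log2 change 1.6, SE 0.03, adjusted p = 1.95e-07). Prom1, which encodes the apical membrane protein prominin 1, rose from a mean of 5.46 to 42.5 TPM.

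Naive pluripotency genes mostly continued down, but not all of them. Of 26 tested genes 16 fell, 13 of them at least 2-fold, and 7 rose, against 28.9%, 4.46% and 45.2% of all tested genes. The other 3 did not pass, and the median log2 change was -0.92. Nr0b1 (Dax1), an orphan nuclear receptor of the naive network, stood at 32.4 and 30 TPM in 2i and at 21.8 and 22.6 TPM at 24 h and 0.94 and 0.97 TPM at 48 h (log2 change -3.57, SE 0.06, adjusted p = 1.32e-07). Klf2, a Krüppel-like factor of the naive state, stood at 169 and 176 TPM in 2i and at 27.8 and 30.1 TPM at 24 h and 5.56 and 4.71 TPM at 48 h (log2 change -2.29, SE 0.07, adjusted p = 7.61e-07). Zfp42 (Rex1), the common reporter gene of naive cells, stood at 195 and 197 TPM in 2i and at 62 and 64.5 TPM at 24 h and 22 and 20.7 TPM at 48 h (log2 change -1.52, SE 0.04, adjusted p = 4.01e-07). For all 3 the order was 2i, 24 h, 48 h from high to low, without overlap, which the naming rule required of Nr0b1 between 24 and 48 h. Spp1 (osteopontin), Pecam1 (CD31) and the lysosomal mannosidase gene Manba fell by 2.69, 2.56 and 2.61 on the log2 scale. Fgf4, the autocrine FGF of naive cells, fell from a mean of 105 to 19.1 TPM.

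Nanog, Esrrb and Tfcp2l1 had been reduced by 24 h and were higher again at 48 h. Nanog, a homeobox factor of the pluripotency network, stood at 601 and 605 TPM in 2i and at 47.1 and 46.7 TPM at 24 h and 175 and 157 TPM at 48 h (log2 change 1.80, SE 0.05, adjusted p = 4.79e-07). Its 48 h libraries lay above those at 24 h and well below 2i, and its change differed between the steps (second step minus first 5.46, SE 0.09, adjusted p = 1.33e-07). Esrrb, an orphan nuclear receptor, stood at 141 and 142 TPM in 2i and at 18.3 and 18.8 TPM at 24 h and 26.9 and 29.8 TPM at 48 h (log2 change 0.59, SE 0.05, adjusted p = 4.78e-05). Tfcp2l1, another naive transcription factor, stood at 1.96 and 2.13 TPM at 24 h and 2.95 and 3.76 TPM at 48 h, a small rise (log2 change 0.51, SE 0.09, adjusted p = 0.00216) against 81.9 TPM in 2i. Klf4 stood at 1.12 and 1.03 TPM at 24 h and 1.25 and 1.07 TPM at 48 h and did not pass the test (log2 change 0.06, SE 0.08, adjusted p = 0.539). Prdm14 stood at 0.50 and 0.48 TPM at 24 h and 0.37 and 0.21 TPM at 48 h and did not pass either (log2 change -0.21, SE 0.09, adjusted p = 0.0691). The 6 markers of naive ES cells summed to 489 and 489.5 TPM in 2i, 85.1 and 88.2 TPM at 24 h and 55.2 and 57.5 TPM at 48 h. The lower sum at 48 h came from Zfp42, at 62 and 64.5 TPM at 24 h and 22 and 20.7 TPM at 48 h. It was the 1 marker that fell from 24 to 48 h, while 3 rose, against 28.9% and 45.2% of all tested genes.

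The shared core of pluripotency fell in this interval after mostly rising in the first. Pou5f1 (Oct4), the POU factor on which pluripotency depends, stood at 1047 and 1080.2 TPM in 2i and at 1234 and 1279.9 TPM at 24 h and 349 and 336 TPM at 48 h (log2 change -1.87, SE 0.03, adjusted p = 1.32e-07). Both 48 h libraries lay below every library of 2i and 24 h. Sox2, its partner of the SOX family, stood at 132 and 131 TPM in 2i and at 91.7 and 93.5 TPM at 24 h and 49.1 and 47.6 TPM at 48 h (log2 change -0.92, SE 0.03, adjusted p = 8.01e-07). Dppa5a, an abundant KH-domain RNA-binding protein of pluripotent cells, stood at 3208 and 3299 TPM at 24 h and 1215 and 1230.3 TPM at 48 h (log2 change -1.41, SE 0.02, adjusted p = 1.18e-07). Dppa2, a chromatin factor that opens germline and zygotic genes, went from 143 to 53 TPM (log2 change -1.42). Of 14 listed genes 12 fell and 1 rose, against 28.9% and 45.2% of all tested genes. Falls of at least 2-fold in the list numbered 7 as deposited and 10 after scaling, and its median log2 change was -1.01. In the first step, from 2i to 24 h, 11 of the same genes had risen and 2 had fallen, against 36.2% and 39.8% of all tested genes. The change was lower in the second step than in the first for 13 of the 14 by the test of the difference, against 31.6% of all tested genes. Lin28a, an RNA-binding inhibitor of let-7 processing, stood at 236 and 235 TPM at 24 h and 243 and 246 TPM at 48 h and did not pass (log2 change 0.05, SE 0.03, adjusted p = 0.19); after scaling it was called lower, at -0.10.

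Formative genes did not move as 1 group. Of 30 tested genes 15 rose and 14 fell, against 45.2% and 28.9% of all tested genes. Their median log2 change was 0.08, which became -0.06 after scaling. Fgf5, the FGF ligand that marks the post-implantation epiblast, stood at 13 and 12.8 TPM at 24 h and 28.1 and 24.8 TPM at 48 h (log2 change 0.98, SE 0.08, adjusted p = 2.86e-05). It was at 0.04 TPM or less in 2i, so it climbed through both steps. Car4, a carbonic anhydrase, stood at 33.3 and 33.5 TPM at 24 h and 218 and 231 TPM at 48 h (log2 change 2.71, SE 0.07, adjusted p = 4.08e-07). Otx2, the homeobox factor that directs enhancers of the formative state, stood at 30.5 and 32.2 TPM at 24 h and 21.7 and 22.2 TPM at 48 h (log2 change -0.49, SE 0.04, adjusted p = 5.71e-05). Pou3f1 (Oct6), a POU factor of the same state, changed little (log2 change -0.24, SE 0.06, adjusted p = 0.00621), and that call was lost with a pseudocount of 0.1 and without 24 h replicate 2 (adjusted p = 0.0790 and 0.0501). Sox3 stood at 19.6 and 20.2 TPM at 24 h and 21.7 and 19.4 TPM at 48 h and did not pass (log2 change 0.04, SE 0.06, adjusted p = 0.56).

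A second set of formative genes was highest at 24 h. Dnmt3b, a de novo DNA methyltransferase, stood at 12.4 and 14.3 TPM in 2i and at 356 and 354 TPM at 24 h and 143 and 138 TPM at 48 h (log2 change -1.33, SE 0.06, adjusted p = 3.18e-06). Dnmt3a, the other catalytic de novo enzyme, stood at 61.6 and 63.2 TPM in 2i and at 454 and 446 TPM at 24 h and 127 and 133 TPM at 48 h (log2 change -1.79, SE 0.03, adjusted p = 1.53e-07). Dnmt3l, their cofactor without catalytic activity, stood at 37.6 and 42.1 TPM in 2i and at 254 and 250.5 TPM at 24 h and 57.6 and 52.6 TPM at 48 h (log2 change -2.17, SE 0.06, adjusted p = 6.57e-07). For all 3 the 48 h level was below 24 h and above 2i, and none of the groups overlapped. Lef1, a transcription factor that pairs with β-catenin, stood at 5.33 and 5.12 TPM in 2i and at 48.1 and 46.9 TPM at 24 h and 16.2 and 15.8 TPM at 48 h (log2 change -1.51, SE 0.04, adjusted p = 5.68e-07). Pim2, a serine/threonine kinase, stood at 4.68 and 4.51 TPM in 2i and at 223 and 223 TPM at 24 h and 42.8 and 38.4 TPM at 48 h (log2 change -2.43, SE 0.05, adjusted p = 2.60e-07). Enox1 stood at 0.97 and 0.91 TPM in 2i and at 19.3 and 19.6 TPM at 24 h and 1.58 and 1.35 TPM at 48 h (log2 change -3.06, SE 0.08, adjusted p = 3.68e-07), so its 48 h level was within 1 TPM of 2i. By the test of the difference between the steps, 23 of the 30 formative genes had a lower log2 change in the second step than in the first, against 31.6% of all tested genes. Among 19 genes of the DNA methylation machinery 13 fell and 4 rose, against 28.9% and 45.2% of all tested genes. The median log2 change of the 19 was -0.72.

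**Figure D3:**
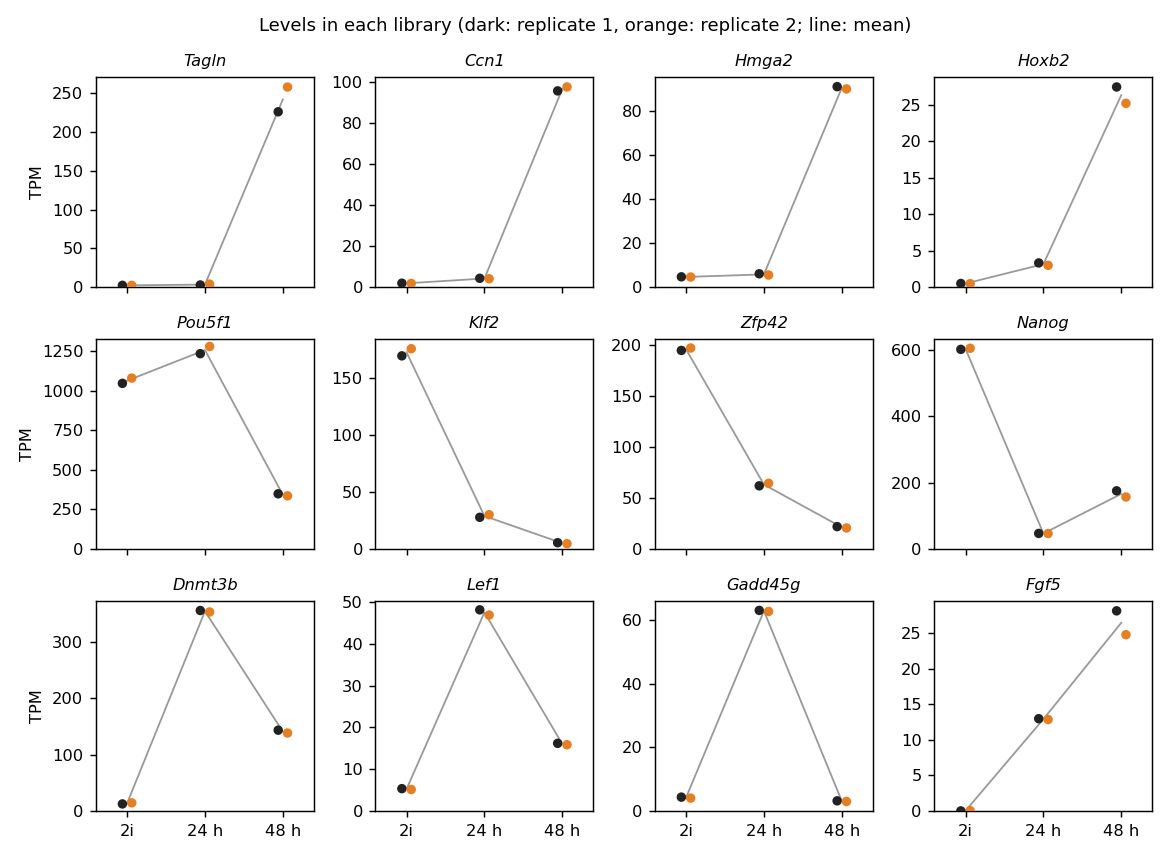
TPM (vertical axes, from 0) of 12 genes in each library of 2i, 24 h and 48 h, with replicate 1 dark, replicate 2 orange and a line through the means. The top row rises from 24 to 48 h, Pou5f1, Klf2 and Zfp42 fall while Nanog rises from 46.9 to 166 TPM, and Dnmt3b, Lef1 and Gadd45g are highest at 24 h while Fgf5 climbs to 26.4 TPM.

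The largest fall of a named gene was that of Gadd45g, a stress-induced protein of the growth arrest and DNA damage family, which stood at 4.34 and 4.03 TPM in 2i and at 63.1 and 62.8 TPM at 24 h and 3.17 and 2.97 TPM at 48 h (log2 change -3.98, SE 0.06, adjusted p = 8.73e-08). Its paralog Gadd45b moved the opposite way, from 54.9 and 54.8 TPM in 2i through 3.15 and 3.09 TPM at 24 h and 32.2 and 33.3 TPM at 48 h (log2 change 3.03, SE 0.04, adjusted p = 7.98e-08). The steps differed for both (second step minus first -7.60, SE 0.10, adjusted p = 1.05e-07 for Gadd45g, and second step minus first 6.79, SE 0.07, adjusted p = 1.05e-07 for Gadd45b). Morc1, which silences transposons in male germ cells, stood at 31.7 and 33.2 TPM at 24 h and 2.38 and 2.27 TPM at 48 h (log2 change -3.33, SE 0.05, adjusted p = 7.98e-08) and was among the 12 largest named falls. The falls of 3 members of the germline and meiosis list were smaller. Stra8, the retinoic acid-induced gene of meiotic entry, stood at 31.8 and 31.9 TPM at 24 h and 7.29 and 7.39 TPM at 48 h (log2 change -1.98, SE 0.03, adjusted p = 1.32e-07). Tex14 and Hormad1, needed for germ cell bridges and meiotic chromosome axes, fell by 2.16 and 2.22 on the log2 scale. The list of germline and meiosis genes as a whole did not move 1 way. Of 33 genes 13 were higher and 14 lower, against 45.2% and 28.9% of all tested genes. The median of the list was 0.05 and became -0.06 after scaling. Mylpf, a fast skeletal muscle myosin light chain, went against the contractile genes, from 447 and 479 TPM in 2i to 99.5 and 103 TPM at 24 h and 10.8 and 8.22 TPM at 48 h (log2 change -3.30, SE 0.12, adjusted p = 1.16e-05). Hsd17b14, a steroid dehydrogenase, stood at 97.3 and 94.6 TPM at 24 h and 8.35 and 8.47 TPM at 48 h (log2 change -3.37, SE 0.04, adjusted p = 7.87e-08). The zinc finger genes Rex2, Zfp600 and Zfp640 fell by 3.54, 3.28 and 3.34 on the log2 scale. Rex2 and Zfp600 belong to a cluster of near-identical copies on chromosome 4, among which reads could be split, so their single values are uncertain. The remaining named falls were Vwa3b (-3.96), Dusp27 (-3.36), Capn3, a calpain protease (-3.26), and Cphx3 (-3.97), a homeobox gene with close copies and therefore uncertain, at 16.3 and 16.9 TPM at 24 h and 0.26 and 0 TPM at 48 h.

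The 2-cell stage genes, which a small fraction of ES cells expresses, fell. Of 20 tested genes 15 fell, 6 of them at least 2-fold, against 28.9% and 4.46% of all tested genes. The other 5 did not pass, and the median log2 change was -0.45. Zscan4c, a SCAN-domain zinc finger gene of that stage, stood at 21.4 and 22.2 TPM at 24 h and 8.52 and 8.4 TPM at 48 h (log2 change -1.27, SE 0.08, adjusted p = 1.07e-05), and Zscan4d at 14.9 and 13.9 TPM at 24 h and 6.27 and 5.79 TPM at 48 h (log2 change -1.13, SE 0.06, adjusted p = 7.24e-06). The Zscan4 copies share reads, so the split among them is uncertain.

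More genes of FGF signalling and its feedback rose than fell. Of 30 tested members 21 rose, 8 at least 2-fold, and 8 fell, against 45.2%, 11.7% and 28.9% of all tested genes. The median log2 change was 0.59. The ligand gene Fgf8 stood at 3.22 and 3.28 TPM at 24 h and 27.5 and 24.7 TPM at 48 h (log2 change 2.67, SE 0.08, adjusted p = 5.07e-07), while Fgf4 fell, so the ligands moved in both directions. Il17rd (Sef), a membrane inhibitor of FGF receptor signalling, stood at 14.1 and 13.1 TPM at 24 h and 111 and 114 TPM at 48 h (log2 change 2.96, SE 0.05, adjusted p = 1.18e-07). Spred1, an inhibitor of the Ras pathway, stood at 23.9 and 23.2 TPM at 24 h and 64.9 and 66.1 TPM at 48 h (log2 change 1.44, SE 0.05, adjusted p = 8.05e-07). Both inhibitors had no overlap between the times.

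The LIF and STAT3 list, whose pathway sustains ES cells in serum, had 9 of 12 genes higher and 2 lower. Of all tested genes 45.2% were higher and 28.9% lower. The median of the list was 1.06. The kinase gene Pim1 stood at 62.5 and 60.4 TPM at 24 h and 273 and 315 TPM at 48 h (log2 change 2.24, SE 0.07, adjusted p = 1.14e-06) and its paralog Pim3 at 30.2 and 29.6 TPM at 24 h and 106 and 124 TPM at 48 h (log2 change 1.90, SE 0.07, adjusted p = 1.76e-06). Pim2, given above, fell, so the 3 Pim kinases did not move together. Junb, a subunit of AP-1, stood at 3.25 and 3.46 TPM at 24 h and 22.6 and 25.7 TPM at 48 h (log2 change 2.53, SE 0.08, adjusted p = 7.66e-07).

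Wnt and β-catenin components had 28 of 41 higher and 6 lower (median log2 change 0.60), against 45.2% and 28.9% of all tested genes. After scaling 28 were higher and 10 lower, and over all genes the calls were then nearly even. Wls, the carrier needed for Wnt secretion, stood at 3.24 and 2.79 TPM at 24 h and 25.1 and 27.9 TPM at 48 h (log2 change 2.78, SE 0.09, adjusted p = 7.10e-07), and the receptor gene Fzd2 at 14.5 and 14.4 TPM at 24 h and 47.4 and 47.2 TPM at 48 h (log2 change 1.64, SE 0.05, adjusted p = 5.25e-07). Target genes of the pathway were divided, with 12 of 21 higher and 5 lower, against the same 45.2% and 28.9%. Axin2, the negative feedback gene most used as a readout, stood at 21.6 and 23.3 TPM in 2i, where GSK3 is inhibited, and at 5.87 and 5.62 TPM at 24 h and 9.21 and 9.72 TPM at 48 h (log2 change 0.63, SE 0.06, adjusted p = 7.55e-05). Notum, a secreted enzyme that inactivates Wnt ligands, fell from a mean of 15.1 to 1.21 TPM (log2 change -2.88), and Sall1, a zinc finger factor, fell from a mean of 98.6 to 35.4 TPM.

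Nodal and Activin, BMP and Notch genes had higher medians than the whole set, of which 45.2% rose and 28.9% fell. In the Nodal and Activin list 16 of 21 rose and 3 fell (median 0.53), with 15 and 5 after scaling. Furin, a proprotein convertase that activates Nodal, stood at 4.89 and 4.79 TPM at 24 h and 24.3 and 22.8 TPM at 48 h (log2 change 2.07, SE 0.05, adjusted p = 3.46e-07). In the BMP list 16 of 18 rose and 1 fell (median 0.68), and the lone fall was not called without 24 h replicate 2 or 48 h replicate 1. The ligand gene Bmp7 stood at 0.62 and 0.45 TPM at 24 h and 6.61 and 6.43 TPM at 48 h (log2 change 2.29, SE 0.08, adjusted p = 1.08e-06), the target gene Id1, an inhibitor of basic helix-loop-helix factors, rose from a mean of 3.08 to 15.9 TPM, and the extracellular antagonist gene Fst (follistatin) rose from a mean of 2.03 to 15.2 TPM. In the Notch list 15 of 17 rose and 2 fell (median 0.70). The receptor gene Notch3 stood at 16.6 and 15.6 TPM at 24 h and 72.7 and 71.6 TPM at 48 h (log2 change 2.10, SE 0.05, adjusted p = 2.60e-07), and the target gene Hes1, a transcriptional repressor, at 11.8 and 12.4 TPM at 24 h and 55.4 and 54.2 TPM at 48 h (log2 change 2.09, SE 0.04, adjusted p = 1.87e-07). Rfng, a glycosyltransferase that modifies Notch, fell from a mean of 32.8 to 10.9 TPM.

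Hox genes, the position code of the body axis, rose from low levels. Of 20 tested Hox genes 19 rose, 13 at least 2-fold (median log2 change 1.54), against 45.2% and 11.7% of all tested genes. Hoxb2 stood at 3.33 and 3 TPM at 24 h and 27.5 and 25.2 TPM at 48 h (log2 change 2.71, SE 0.08, adjusted p = 5.26e-07). Hoxb9, of a more posterior paralog group, stood at 1.61 and 1.48 TPM at 24 h and 7.41 and 7.29 TPM at 48 h (log2 change 1.71, SE 0.07, adjusted p = 2.18e-06). Hoxb13 was the member that did not pass, at a mean of 0.4 and 0.33 TPM.

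Lineage genes rose to modest levels. Of 21 tested primitive streak and mesoderm genes 15 rose and 2 fell (median 0.62), against 45.2% and 28.9% of all tested genes. Not every fall was still called when 24 h replicate 1 or 48 h replicate 2 was left out. T (brachyury), the T-box gene of the streak, stood at 0.34 and 0.21 TPM at 24 h and 3.47 and 4.25 TPM at 48 h (log2 change 1.93, SE 0.11, adjusted p = 7.02e-06). Cdx2, a caudal homeobox gene of posterior tissue and trophoblast, stood at 0.59 and 0.57 TPM at 24 h and 5.99 and 7.92 TPM at 48 h (log2 change 2.32, SE 0.13, adjusted p = 6.47e-06). The streak markers Mixl1 and Mesp1 stayed under 1 TPM in all 4 libraries. In the anterior neural list 10 of 16 rose and 6 fell, against 45.2% and 28.9% of all tested genes. Sox1, an early neural SOX factor, stood at 19.7 and 19.2 TPM at 24 h and 37.1 and 32.9 TPM at 48 h (log2 change 0.82, SE 0.07, adjusted p = 4.10e-05), and Nes, the intermediate filament of neural progenitors, at 10.1 and 10.2 TPM at 24 h and 42.6 and 43.5 TPM at 48 h (log2 change 1.99, SE 0.05, adjusted p = 3.32e-07). The neurogenic factor gene Neurog2 stayed under 0.1 TPM. Nkx1-2 fell from a mean of 3.61 to 0.79 TPM.

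All 12 tested genes of the primitive endoderm list rose, 8 at least 2-fold, against 45.2% and 11.7% of all tested genes. But the members with the smallest p encode matrix and an endocytic adaptor. Col4a2 and Col4a1, the basement membrane collagen IV chains, rose from a mean of 1.46 to 15.4 TPM and from 6.37 to 32.6 TPM. Lamb1, laminin β1, rose from a mean of 22 to 64.5 TPM, and Dab2, a clathrin adaptor, from a mean of 2.72 to 15.3 TPM. The 5 endoderm marker genes summed to 3.80 and 3.69 TPM at 24 h and 7.22 and 7.72 TPM at 48 h, most of it Gata4. In the trophoblast list 11 of 15 rose and 2 fell, against 45.2% and 28.9% of all tested genes. Its leading members were the simple epithelial keratins, with Krt8 at 12.3 and 11.8 TPM at 24 h and 74.5 and 75.7 TPM at 48 h (log2 change 2.54, SE 0.05, adjusted p = 1.40e-07) and Krt18 at 15.3 and 14.9 TPM at 24 h and 93.8 and 100.1 TPM at 48 h (log2 change 2.60, SE 0.05, adjusted p = 2.01e-07). Tfap2c, an AP-2 factor of trophoblast and germ cells, stood at 33 and 35.5 TPM in 2i and at 2.35 and 2.21 TPM at 24 h and 17.8 and 16.3 TPM at 48 h (log2 change 2.46, SE 0.06, adjusted p = 4.11e-07). Elf5, a defining trophoblast gene, stayed under 0.1 TPM. The part of other cell types in these rises was not tested.

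Interferon-response and antigen presentation genes rose without exogenous interferon being named in the labels. Of 26 tested members 20 rose, 9 at least 2-fold, and 3 fell (median 0.71), against 45.2%, 11.7% and 28.9% of all tested genes. Isg15, a ubiquitin-like modifier, stood at 0.30 and 0.22 TPM at 24 h and 12.4 and 12 TPM at 48 h (log2 change 3.39, SE 0.10, adjusted p = 5.98e-07). Irf1, a transcription factor that drives such genes, stood at 21 and 20.5 TPM at 24 h and 84.1 and 85 TPM at 48 h (log2 change 1.98, SE 0.03, adjusted p = 1.32e-07). B2m, β2-microglobulin of class I complexes, stood at 38.1 and 34.4 TPM in 2i and at 8.99 and 8.69 TPM at 24 h and 47.3 and 52 TPM at 48 h (log2 change 2.36, SE 0.07, adjusted p = 5.00e-07). Among p53 targets and apoptosis genes 17 of 26 rose and 5 fell, against 45.2% and 28.9% of all tested genes. Perp, a desmosomal and apoptosis-linked membrane protein, rose from a mean of 4.33 to 35.4 TPM.

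Glucose transporter genes rose while the glycolysis list stayed near 0. Slc2a3 (Glut3) stood at 936 and 919 TPM in 2i and at 101 and 92.2 TPM at 24 h and 666 and 642 TPM at 48 h (log2 change 2.75, SE 0.05, adjusted p = 1.32e-07), and Slc2a1 (Glut1) at 94.5 and 94.2 TPM at 24 h and 457 and 442 TPM at 48 h (log2 change 2.24, SE 0.04, adjusted p = 1.32e-07). Of 25 tested gene IDs, which stand for 24 listed genes since Aldoa has 2, 10 rose and 8 fell, against 45.2% and 28.9% of all tested genes. After scaling 9 rose and 12 fell. Ldhb, a lactate dehydrogenase subunit, and Pfkp, a phosphofructokinase, fell by 1.04 and 1.22 on the log2 scale. Cholesterol and fatty acid synthesis genes fell, 26 of 32 against 3 higher (median -0.48). Of all tested genes 28.9% fell and 45.2% rose. Insig1, a sterol-regulated protein that retains SREBP in the endoplasmic reticulum, fell from a mean of 129 to 78.6 TPM, and Fasn, fatty acid synthase, from a mean of 333 to 209 TPM. Of 30 ATF4 stress and amino acid supply genes 20 fell and 7 rose, against the same 28.9% and 45.2%. Those that fell included Atf4 itself (log2 change -0.88, SE 0.03, adjusted p = 8.41e-07) and Shmt2, the mitochondrial enzyme of serine breakdown (-1.13).

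Cell cycle and housekeeping lists shifted by small amounts, some of them within reach of the scaling. Of 40 E2F and DNA replication genes 30 fell and 5 rose (median -0.30), against 28.9% and 45.2% of all tested genes. Ccne1, cyclin E1, stood at 161 and 162 TPM at 24 h and 85 and 84.1 TPM at 48 h (log2 change -0.93, SE 0.04, adjusted p = 1.46e-06). Myc stood at 0.70 and 0.65 TPM in 2i and at 69.8 and 69 TPM at 24 h and 32.4 and 35 TPM at 48 h (log2 change -1.02, SE 0.05, adjusted p = 4.48e-06), and Mycn at 61.7 and 62.2 TPM at 24 h and 26.3 and 24.9 TPM at 48 h (log2 change -1.24, SE 0.04, adjusted p = 1.13e-06). Of 48 ribosomal protein genes 32 rose and 5 fell as deposited (median 0.12), against 45.2% and 28.9% of all tested genes. But 12 rose and 18 fell after scaling (median -0.03). Of 37 nuclear genes of oxidative phosphorylation 8 rose and 20 fell as deposited, against the same 45.2% and 28.9%. After scaling 28 fell, and those rises were no longer called.

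Chromatin genes included a strong rise of 1 architectural factor. Hmga2, an AT-hook protein that binds the minor groove of DNA, stood at 4.72 and 4.64 TPM in 2i and at 6.12 and 5.55 TPM at 24 h and 91.3 and 90.3 TPM at 48 h (log2 change 3.75, SE 0.05, adjusted p = 8.73e-08). The 2i and 24 h libraries lay close together and both 48 h libraries far above. Its relative Hmga1 fell from a mean of 1202 to 815 TPM (log2 change -0.56). Lin28b, the second let-7 inhibitor, rose from a mean of 25 to 41.5 TPM (log2 change 0.71, SE 0.04, adjusted p = 5.17e-06). The macroH2A genes H2afy and H2afy2, histone variants linked to stable silencing, rose from a mean of 33.5 to 133 TPM and from 19.1 to 58.9 TPM. Of 13 Polycomb PRC2 genes 8 fell and 4 rose, against 28.9% and 45.2% of all tested genes. After scaling 9 fell and 2 rose, and 2 rises were called without 24 h replicate 1, 48 h replicate 1 or 48 h replicate 2. Jarid2, a PRC2 cofactor, fell from 145 to 80 TPM and Rbbp7, a histone-binding subunit, rose from 464 to 827 TPM. Of 19 genes of the E2F6 and PRC1.6 complex 9 fell and 6 rose, against the same shares, and after scaling 11 fell and 4 rose.

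The second day differed from the first in most genes. The change from 24 to 48 h and that from 2i to 24 h differed in 12709 of 16559 genes (76.7%) by a test of the difference within the same fit, 7470 with the higher value in the second step and 5239 with the lower. The first step had 12578 genes called (76%), of which 1231 were higher (7.43%) and 1712 lower (10.3%) by at least 2-fold. The comparisons share the 24 h libraries, so a high or low 24 h value moves them in opposite directions. The contractile list had a median of 0.20 in the first step and 1.95 in the second, the adhesion list 0.07 and 1.21, and the formative list 2.75 and 0.08. The second step was the higher one for 22 of 28 contractile genes, 23 of 34 adhesion genes and 15 of 20 Hox genes, against 45.1% of all tested genes. For Tagln the difference was second step minus first 5.44, SE 0.21, adjusted p = 2.63e-06.

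Fewer genes changed over the same interval in the shBcat libraries, whose values come from a separately normalized table and are set beside the control without a test. Ctnnb1, the target of the hairpin, stood at 94.9 and 94.5 TPM at 24 h and 107 and 103 TPM at 48 h there. With shBcat, 5115 of 15304 tested genes changed from 24 to 48 h (33.4%), and 2923 to 3102 when any 1 of the 4 shBcat libraries at those times was left out. The median SE of a change was 0.094 in the shBcat fit and 0.067 in the control fit, so the counts of calls rest on unlike precision. By at least 2-fold 279 genes rose (1.82%) and 219 fell (1.43%) with shBcat. Of 14832 genes tested in both tables, 1839 rose at least 2-fold in control epiLC and 263 in shBcat epiLC, with 122 in both, which is 6.63% of the former and 46.4% of the latter. Without the 2-fold minimum, 889 of those 1839 genes were called higher in shBcat epiLC and 58 lower. For falls of at least 2-fold the counts were 716, 213 and 150, or 20.9% and 70.4%, and 496 of the 716 were called lower in shBcat epiLC and 58 higher. The genes that rose 2-fold in control epiLC had a median log2 change of 1.38 there and 0.31 in shBcat epiLC.

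Gene by gene, Tagln stood at 7.45 and 8.42 TPM at 24 h and 10.6 and 11.4 TPM at 48 h with shBcat (log2 change 0.42, adjusted p = 0.04998). Ccn1 stood at 30.4 and 31.6 TPM at 24 h and 30 and 36.3 TPM at 48 h with shBcat (log2 change 0.09, adjusted p = 0.481). Hmga2 stood at 7.93 and 7.66 TPM at 24 h and 12.5 and 12.9 TPM at 48 h (log2 change 0.64, adjusted p = 3.61e-04). Control epiLC at 96 h, in the shBcat table, had Tagln at 31 and 32.3 TPM and Hmga2 at 84.9 and 77.7 TPM. In shBcat epiLC at 96 h Tagln stood at 39.5 and 28.3 TPM, near that control, and Hmga2 at 59.9 and 63.8 TPM. Ccn1 stood at 58.5 and 64.2 TPM in control and 46.2 and 44.9 TPM in shBcat epiLC at 96 h. The contractile list had a median of 0.14 with shBcat, the Hox list 1.03 and the naive list -0.79. The 2-cell stage list went the other way, with 20 of 20 genes higher and a median of 1.03, as did cholesterol and fatty acid synthesis (17 of 32 higher, median 0.22). Among all genes tested with shBcat 15.7% were higher. Mitochondrial transcripts made up 5.28% to 5.40% of the values in the 4 shBcat libraries and 3.18% to 3.30% in the 4 control libraries. The knockdown and the table cannot be told apart.

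**Figure D4:**
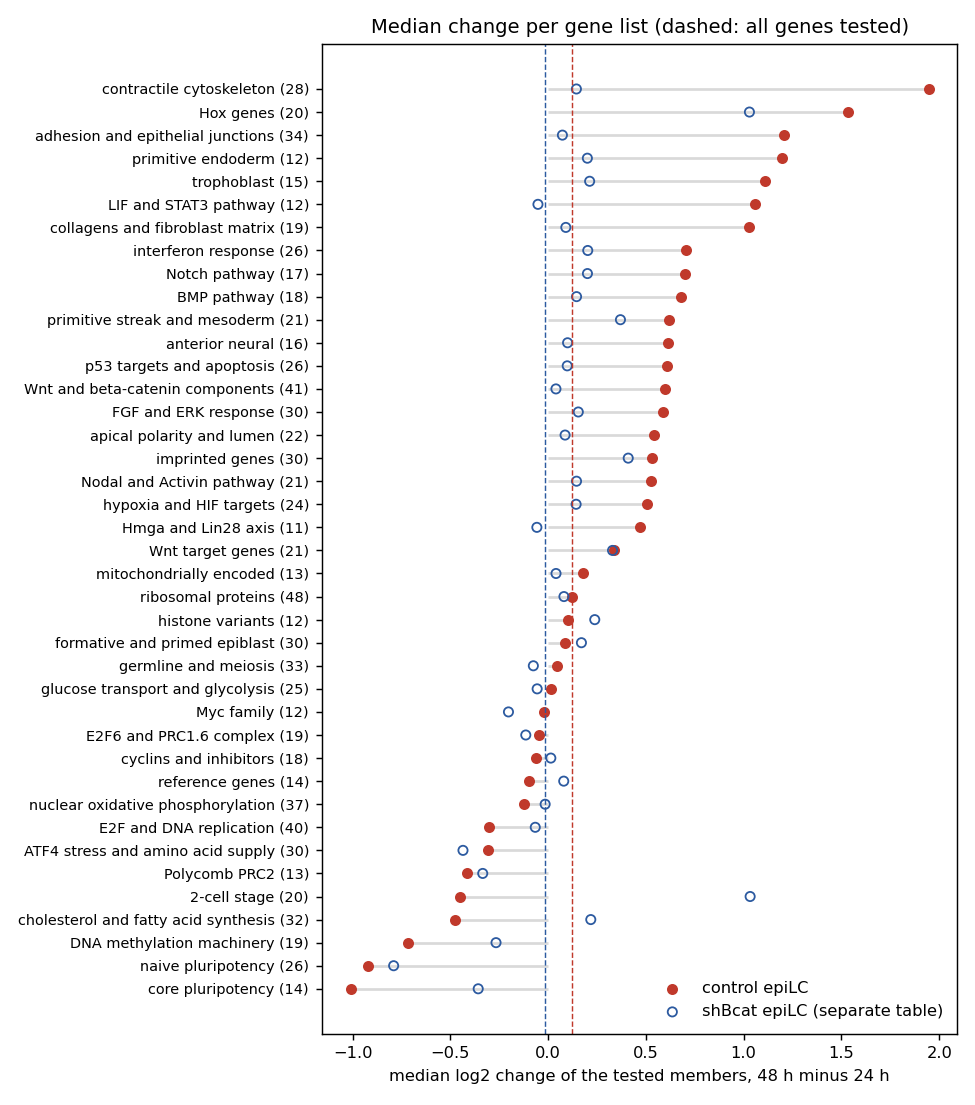
Median log2 change from 24 to 48 h of the tested members of each of 40 gene lists (number tested in brackets) in control epiLC (filled red) and in shBcat epiLC from the separately normalized table (open blue), with dashed lines at the medians of all genes tested (0.12 and -0.02). Contractile, Hox and adhesion genes lie farthest right in control epiLC and core and naive pluripotency genes farthest left, while the 2-cell stage list lies at -0.45 in control and 1.03 in shBcat epiLC.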

How the data were processed

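RNA from control V6.5 epiLC at 24 and 48 h and V6.5 ES cells in 2i was sequenced in 6 libraries, 2 a group. Per the labels' protocols it was isolated with TRIzol, treated with DNase and made into libraries with a TruSeq RNA kit. Per the submitters' processing notes the tools were bcl2fastq 2.18, STAR, RSEM and Bowtie2 and the build mm10; versions of the last 3 are not given in the sources used here. The authors deposited TPM values, 55421 genes a table. TPM keeps no depth, so intervals that need counts are not given, and a few abundant transcripts can shift all others.

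From the deposited values log2(TPM + 1) was computed, and genes at 1 TPM or more in at least 2 of the 6 libraries were tested. All 6 entered 1 limma 3.58.1 model (statmod 1.5.0, R 4.3.3) that estimated 1 mean per group with trended, robustly moderated variances, which leaves 3 residual degrees of freedom. Tests were two-sided, with Benjamini-Hochberg adjustment over all tested genes and a threshold of 0.05. The 8 libraries of the shBcat table were fitted separately in the same way. The procedure was tested on simulated data.

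Lists were counted by gene ID. The comparison, gene lists and fixed panel were chosen with earlier results of these data known. Named genes were the 12 largest rises and falls with groups that do not overlap and a higher mean of at least 5 TPM, leaving out predicted genes, pseudogenes, ribosomal protein and small RNA genes, then as many as 4 of the lowest p in every list, and the panel. Gene positions and promoter windows came from RefSeq tables (GRCm38.p6). Samples that share a replicate number did not deviate together (correlations -0.02, 0.09 and 0.04), so the numbers were not taken to pair the libraries. Alternatives were another pseudocount, other filters, no trend, 4 libraries alone, each library left out, a replicate block, median-of-ratios scaling and a 2-fold minimum. Some genes named by this rule are not reported here.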

Additional observations from a re-analysis of the deposited data

Results flagged for a closer look

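The change from 24 to 48 h differed from the change from 2i to 24 h in 12709 of 16559 genes by a test of the difference within 1 fit. The second step was the higher one in 7470 of them and the lower one in 5239. Both steps use the 24 h libraries, so any gene that is high or low there alone adds to this count. Groups of 2 libraries are too small for a check of single outlying libraries.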

How the results depend on the processing

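The 12279 genes called from 24 to 48 h became 12220 with a pseudocount of 0.1, 14318 with no filter, 9447 with a minimum of 5 TPM, 12026 with no variance trend or robust moderation, 12354 in a fit of the 4 libraries alone and 12283 after median-of-ratios scaling. Requiring a change of at least 2-fold left 2675. Leaving out each 24 or 48 h library in turn gave 11149 to 11403. With the replicate number as a block 12159 genes were called, and the numbers were not taken to pair the libraries. The block changed none of the calls of the 186 named genes. In shBcat epiLC the count of 5115 dropped to between 2923 and 3102 when 1 of its 24 or 48 h libraries was left out, which leaves fewer samples, and stood at 5235 with the block. Of the named genes 182 kept their call and direction in each setting run for single genes, which were the pseudocount, the moderation, the fit of 4 libraries, the block, the scaling and the left-out libraries; the other filters and the 2-fold minimum were run for counts of genes alone. Lin28a reversed to -0.10 (adjusted p = 0.0283) after scaling, which itself shifts all genes by about that much. Pou3f1 lost its call under 2 settings, mt-Nd4l lost it after scaling, and Prdm14 gained one under 4. With 2 libraries a time the spread rests on few samples, and genes near 1 TPM are limited by an unknown depth.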

Other observations

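A run of zinc finger genes on chromosome 4 fell together from 24 to 48 h. The stretch with starts from 145212368 and ends up to 147947316 (GRCm38.p6) was chosen after the values were seen, and so is given without a test of its own. Of 55 tested genes there 40 fell, 29 of them at least 2-fold, and 6 rose, against 28.9%, 4.46% and 45.2% of all tested genes. The median log2 change of the 55 was -1.0 against 0.12 over all genes. Among the 17 whose symbols start with Zfp, together with Rex2, 16 fell, 15 at least 2-fold, with a median of -1.86. The same 17 had a median of 0.19 from 2i to 24 h, and of -0.59 from 24 to 48 h in shBcat epiLC. Zfp980 fell from a mean of 215 to 22 TPM, Zfp981 from a mean of 126 to 13.1 TPM and Zfp978 from a mean of 189 to 22 TPM, each with groups that did not overlap. Zfp933, near the end of the stretch, stood at a mean of 5.08 TPM at 24 h and 4.93 TPM at 48 h and did not pass (adjusted p = 0.745). The copies are near-identical, so reads could be split among them and the separate values are uncertain, and they are not independent observations.

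Genes of the hypoxia response mostly fell in the first step, and more of them rose than fell in the second. Of 24 tested genes 20 fell and 3 rose from 2i to 24 h, against 39.8% and 36.2% of all tested genes. From 24 to 48 h 15 rose, 3 of them at least 2-fold, and 7 fell, against 45.2%, 11.7% and 28.9% of all tested genes. Bhlhe40, a transcriptional repressor, stood at 41.3 and 40.7 TPM in 2i and at 11.2 and 11 TPM at 24 h and 42.8 and 46.9 TPM at 48 h (log2 change 1.92, SE 0.05, adjusted p = 4.10e-07). Egln1, the oxygen-sensing prolyl hydroxylase, stood at 32.5 and 34.2 TPM in 2i and at 8.2 and 8.39 TPM at 24 h and 25.5 and 25.7 TPM at 48 h (log2 change 1.52, SE 0.04, adjusted p = 5.35e-07). P4ha1, a collagen prolyl hydroxylase, stood at 90.7 and 94.2 TPM in 2i and at 8.81 and 9.15 TPM at 24 h and 17.1 and 16.7 TPM at 48 h (log2 change 0.84, SE 0.04, adjusted p = 3.72e-06), so it regained little of its 2i level. The comparisons share the 24 h libraries.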
